A study of Mus musculus with 19 samples.

Results

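The proteasome subunit genes of differentiated 3T3-L1 cells were examined as a set of 44 genes among 18820 measured on the arrays. They were taken by name, as all genes called Psma, Psmb, Psmc, Psmd, Psme, Psmf or Psmg followed by a number, apart from the immune forms Psmb8, Psmb9 and Psmb10. A gene entered through a probe set annotated with that gene alone, and the brightest such probe set over all arrays stood for a gene that had several. The 44 genes were 13 subunits of the core particle, 17 of the regulatory particle, 5 activators and inhibitors, 7 assembly chaperones and 2 tissue-specific relatives of core subunits. Within that rule the names decided, and brightness decided only between probe sets of 1 gene. The core subunit gene Psma4 was on a probe set shared with the transcript AY074887 and was therefore not among them; that probe set differed from control by -0.14 with PA, -0.27 with PMA, -0.17 with SA and -0.27 with OA.

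3T3-L1 is a mouse preadipocyte line that stores lipid after hormonal induction. The 19 arrays covered 5 groups of differentiated cells kept in serum-free medium with insulin and 2% albumin from day 7 and treated for 48 h from day 8. The controls (4 arrays) received albumin with the ethanol vehicle. The other groups received the same albumin and vehicle with 250 µM palmitic acid (PA, 16 carbons, no double bond; 4 arrays), palmitoleic acid (PMA, 16 carbons and 1 double bond; 4 arrays, titled PMO in the labels), stearic acid (SA, 18 carbons, no double bond; 4 arrays) or oleic acid (OA, 18 carbons and 1 double bond; 3 arrays). Arrays within a group are titled as biological replicates, all of 1 cell line, and nothing in the labels says how the cultures were kept apart, so the p-values measure the spread between these samples, which may be technical. The adipocyte markers were present in every group, the dimmest of 9 being leptin at a group mean of at least 7.89. None of the 9 passed the test against the controls, though Plin1 with OA was close at 0.19 (limma adjusted p = 0.0502). Plin1 passed with OA without PA replicate 2 and under cyclic loess (limma adjusted p = 0.0389 and 0.0225). None of 6 macrophage markers passed against control either. Adgre1 stood at group means from 3.51 to 3.58. Ptprc was at a difference of 0.24 with PA (limma adjusted p = 0.197), or 0.15 without PA replicates 2 and 4. Cd68 was at 0.32 with PMA (limma adjusted p = 0.128) and -0.25 with SA.

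PA replicates 2 and 4 and PMA replicates 1 and 4 stood apart from the other arrays on the first principal components of all genes. Many of the values that turned or moved by over 1.5 times without them are given both ways, but not all. On PA replicate 2, 33 of the 44 genes lay below the mean of their own group, against 47.2% of all genes, and on PA replicate 3 it was 2 genes, against 39.8%. Of 6 preadipocyte and fibroblast markers, Col1a1 was higher with PMA by 0.26 (limma adjusted p = 0.0463). That call was lost in 14 of the 19 fits that left out 1 array. Dlk1 was higher by 0.26 with PMA and by 0.22 with OA (limma adjusted p = 0.113 with OA), and passed with neither. The log2 of the summed level of the 6 markers ran from 13.8 to 13.9 on the PMA arrays against 13.6 to 13.7 on the controls. Their part in the results below was not tested. In RNA from whole cultures, fewer cells of a type and less RNA per cell cannot be told apart.

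The proteasome is the protease that destroys proteins marked with ubiquitin. Its barrel-shaped core holds rings of alpha subunits, which gate the entrance, and rings of beta subunits, some of which cut the substrate; the regulatory particle caps the barrel, where a lid removes the ubiquitin and an ATPase base unfolds the substrate and feeds it in. In fat cells the transcription factor Nfe2l1 is known to raise many subunit genes together when proteolysis is short, and the activators Psme1 to Psme4 can cap the core in place of the regulatory particle. The question put to these arrays was whether any acid, or saturated against monounsaturated chains, moved these genes, and whether the core moved differently from the cap.

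None of the 44 genes passed the test in any of the 10 comparisons made, at an adjusted p of 0.05 by limma over all 18820 genes. The share of all genes called was 0% for PA against control, 0.266% for PMA, 0.165% for SA, 0.861% for OA and 0.197% for the mean of the 4 acids. Between acids it was 0.553% for saturated against monounsaturated, 0.962% for PA against PMA, 0.0319% for SA against OA, 0.143% for PA against SA and 0.0531% for PMA against OA. A count of 0 of 44 is thus near what such low shares give over 44 genes. Under other settings of the same test up to 4 members passed in a comparison. The most passed with OA against control when arrays were weighted by quality (Psma7, Psma8, Psmd7 and Psmg4), Psma8 being dim on every array. Calls over all genes there went from 162 to 1188. With PA against control, 1 member was higher and 3 were lower at an unadjusted p of 0.05, against 10.9% and 4.55% of all genes. With PMA it was 3 and 2 (all genes, 14.5% and 1.49%), with SA 1 and 1 (5.64% and 2.89%), and with OA 0 and 6 (7.99% and 3.65%). For the mean of the acids it was 1 and 3 (9.93% and 2.74%), for saturated against monounsaturated 2 and 3 (2.52% and 10.1%), and for PA against PMA 2 and 7 (3.13% and 14.5%). For SA against OA it was 2 and 0 (1.23% and 1.16%), for PA against SA 1 and 2 (8.47% and 7.35%), and for PMA against OA 4 and 0 (7.5% and 1.11%). With each acid against control, the share of members higher at that level was below the share of all genes. The share of members lower was above that of all genes with PA, PMA and OA, and below it with SA. These shares rest on few members. Averaged over all genes, PMA replicates 1 and 4 stood 0.13 and 0.09 above the control mean, against -0.01 and 0.02 on replicates 2 and 3. The 4 comparisons with control share the same 4 control arrays and are not independent of each other.

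The arrays bounded how far the measured value of each gene could have moved, 1 gene and 1 comparison at a time. For every one of the 44 genes in each comparison, the 95% interval of the difference lay inside a 1.5-fold change in either direction. The interval that reached farthest was that of Psma7, an alpha subunit, which ran to 0.47 below control on the log2 scale with OA. Replicates of 1 group differed by a median SD of 0.085 over the members, from 0.043 for Psma1 to 0.13 for Psmc1, and by 0.098 over all genes. A p that missed the threshold does not show that a gene stayed level, and these bounds are what the arrays can say about it. The intervals make no allowance for their number. RMA shrinks differences of dim probe sets, so for dim genes they bound the measured value only.

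**Figure D1:**
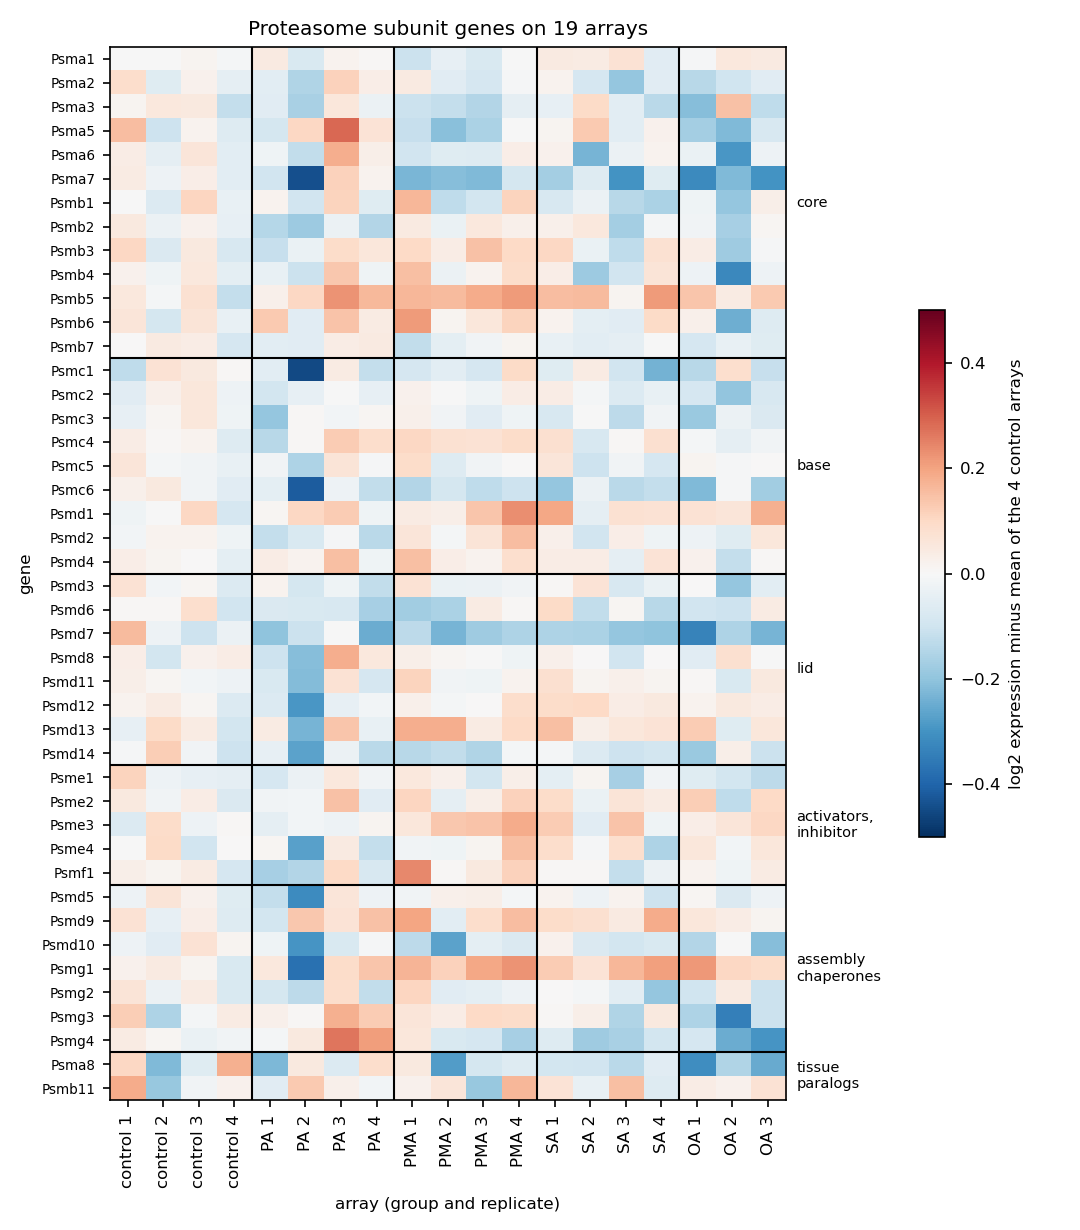
Each row is 1 of the 44 genes, ordered by class, and each column is 1 of the 19 arrays, with the log2 value minus the mean of the 4 control arrays as colour. Averaged over the 44 genes, PA replicate 2 sits at -0.11 and PA replicate 3 at 0.07, and the other 17 arrays lie between them.

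The middle of the set lay close to control with each acid. The median difference of the 44 genes was -0.02 with PA, 0.01 with PMA, -0.02 with SA and -0.06 with OA, all as log2 differences, while the median of all genes was 0.03, 0.06, 0.02 and 0.02. Below control lay 32 of 44 members with PA, or 72.7%, against 38.3% of all genes. With PMA it was 18 members, or 40.9%, against 21.5%, but 28 without PMA replicates 1 and 4 and 29 under cyclic loess, with medians of -0.025 and -0.045; with SA 27, or 61.4%, against 41.9%; with OA 30, or 68.2%, against 43.3%. These counts describe the set and carry no test, since genes of 1 complex on the same arrays are not independent. PA replicate 2 was the array that stood farthest from all others, and without it the PA count became 22 of 44 and the median 0.00. Without OA replicate 2 the OA count became 26 and the median -0.023.

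**Figure D2:**
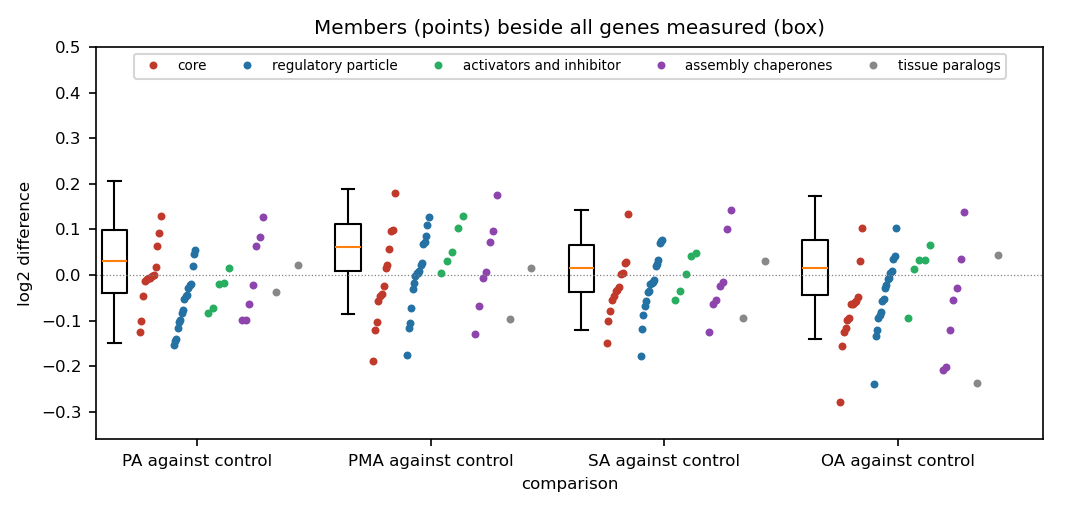
For each acid against control, points give the log2 difference of the 44 genes by class, beside a box from the lower to the upper quartile of all 18820 genes with a line at the median and whiskers from the 5th to the 95th percentile. The medians of members and of all genes differ by less than 0.1 in each comparison with control.

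The core particle was compared with the regulatory particle across the acids. With PA the median was -0.01 for the 13 core genes and -0.05 for the 17 regulatory genes. Without PA replicate 2 the core median turned to 0.022, and without PA replicates 2 and 4 the medians were 0.032 and -0.0055. With PMA these medians were -0.02 and 0.00, with SA -0.03 and -0.02, and with OA -0.06 and -0.03. The mean over core genes minus the mean over regulatory genes, each relative to control, lay between 0.03 and 0.08 on the 4 PA arrays, between -0.05 and 0.04 on the 4 control arrays, and overlapped between those groups. On the OA arrays it was -0.00035 on replicate 1, -0.09 on replicate 2 and -0.02 on replicate 3. Of the 15 acid arrays, 14 had core and regulatory means on the same side of the control mean. With PA all 8 lid genes lay below control, with a median of -0.09, and without PA replicate 2 it was 6 of 8 with a median of -0.04.

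**Figure D3:**
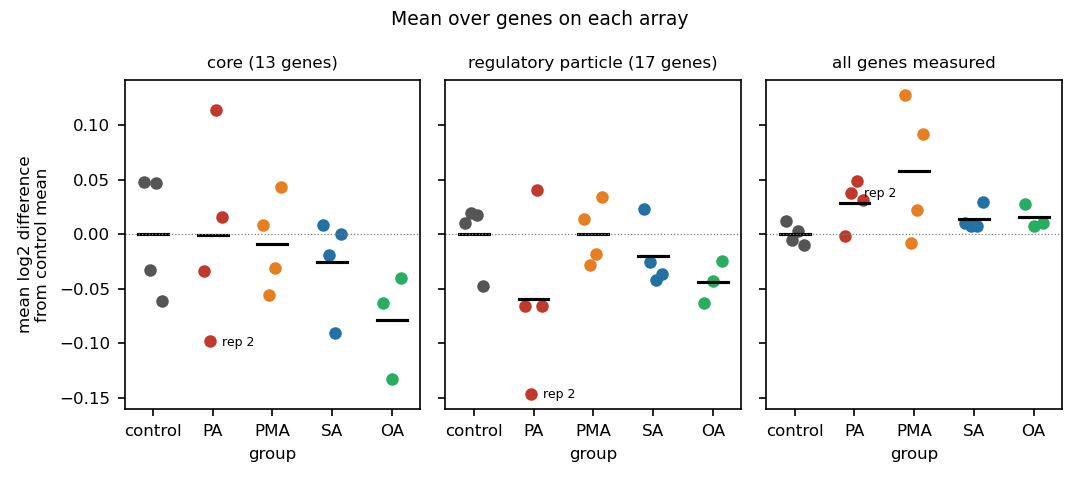
Each point is the mean log2 value of 1 array relative to the mean of the 4 control arrays, for 13 core genes, 17 regulatory genes and all 18820 genes, and bars give group means. Core and regulatory means sit on the same side of 0 on 14 of the 15 acid arrays, and PA replicates 2 and 3 are at -0.10 and 0.11 for the core genes.

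Within the core, alpha and beta subunits had different medians with PMA. All 6 alpha genes lay below control with a median of -0.08, and 6 of 7 beta genes lay above it with a median of 0.06. Without PMA replicates 1 and 4 the alpha median was -0.10 and 4 of 7 beta genes lay above control, with a median of 0.0094. With OA 5 of 6 alpha genes and 6 of 7 beta genes lay below control, with medians of -0.11 and -0.06. Without OA replicate 2 the beta count was 4 of 7. By the shares given above, most of all genes lay above control with PMA and with OA. The median of all genes was 0.06 with PMA, near the beta median, or 0.011 without PMA replicates 1 and 4. With OA it was 0.02. The split by ring was made after the values were seen, and its counts are descriptions.

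Psma7, one of the alpha subunits that form the gate, was the core gene lowest with OA. It measured 9.35, 9.28, 9.34 and 9.25 on the control arrays and 8.99, 9.09 and 9.01 on the OA arrays, so no OA array reached a control array. The PMA arrays stood at 9.08, 9.09, 9.08 and 9.22 and the SA arrays at 9.14, 9.24, 9.01 and 9.24, all below the lowest control. The PA arrays measured 9.21, 8.86, 9.42 and 9.32 and spanned the controls on both sides. The log2 difference from control was -0.28 ± 0.09 (SE) with OA (limma adjusted p = 0.184), -0.19 with PMA (adjusted p = 0.277) and -0.15 with SA (adjusted p = 0.691). Without PA replicate 2, OA against control gave a limma adjusted p of 0.0339 for the same difference, and under the other alternatives this p ran from 0.00685 to 0.408. PMA and OA, which differ in chain length, gave a difference of 0.09 for Psma7 with an interval from -0.10 to 0.28.

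Psma5, another alpha subunit, had the smallest p of all members for saturated against monounsaturated acids. It measured 8.65, 8.84, 9.03 and 8.80 with PA and 8.75, 8.87, 8.69 and 8.76 with SA. With PMA it measured 8.62, 8.53, 8.58 and 8.74, and with OA 8.57, 8.52 and 8.66. The saturated groups were thus higher on average, with overlap, and the control arrays at 8.89, 8.63, 8.76 and 8.67 lay across both. Saturated minus monounsaturated was 0.20 ± 0.05 on the log2 scale (limma adjusted p = 0.109). It passed without PA replicate 1 and under cyclic loess or a trended, robust spread, and its adjusted p ran from 0.0279 to 0.247 over the alternatives. The difference was 0.21 (interval 0.06 to 0.36) for PA against PMA and 0.19 (0.02 to 0.35) for SA against OA. A second probe set for Psma5 gave smaller differences, 0.08 for saturated against monounsaturated acids, 0.10 for PA against PMA and 0.07 for SA against OA. It gave -0.09 for PA against control where the one used gave 0.09, and -0.15 for SA where the one used gave 0.03. Both probe sets lay below control with PMA and with OA. Against control the pair differed by at most 0.18, the largest gap among the 6 members with more than 1 probe set.

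Of the beta subunits that cut the substrate, Psmb5, the chymotrypsin-like subunit, was the highest relative to control. It measured 11.72, 11.66, 11.74 and 11.55 on the control arrays and 11.83, 11.83, 11.85 and 11.88 with PMA, all above the controls. With PA it measured 11.69, 11.77, 11.89 and 11.83, with SA 11.82, 11.83, 11.68 and 11.88, and with OA 11.81, 11.71 and 11.80. The differences from control were 0.18 ± 0.06 with PMA (limma adjusted p = 0.143), 0.13 with PA (adjusted p = 0.294), 0.13 with SA (adjusted p = 0.483) and 0.10 with OA (adjusted p = 0.566). With a trended, robust spread Psmb5 passed with PMA against control. No difference between acids passed the test for Psmb5. PMA and OA did not overlap, at a difference of 0.08 for PMA minus OA (limma adjusted p = 0.72). PA minus PMA was -0.05, with an interval from -0.17 to 0.07, and SA minus OA was 0.03, from -0.10 to 0.16. Psmb6, the caspase-like subunit, differed from control by 0.06 with PA, 0.10 with PMA, 0.00 with SA and -0.09 with OA, and Psmb7, the trypsin-like subunit, by -0.01, -0.04, -0.03 and -0.06. Without PA replicates 2 and 4 the PA value of Psmb6 was 0.13, and without PMA replicates 1 and 4 its PMA value was 0.035. Without OA replicate 2 its OA value was -0.020. The PA value of Psmb7 turned to 0.0096 without PA replicate 2. Psmb2, a beta subunit that does not cut, differed by -0.12 with PA (limma adjusted p = 0.3).

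Promoter windows of these genes were read for the element TGACNNNGC, the letters of the antioxidant response element to which Nfe2l1 and Nfe2l2 bind. RefSeq promoters (GRCm38.p6, 250 bases before to 50 after the start) were found for 36 of the 44 genes, 39 promoters in all. The element was present on either strand in 6 of 39, or 15.4%, against 12.4% of all 32851 promoters. Shown are 4 of those 6, a gene high relative to control with the acids (Psmb5), one low (Psmc6) and 2 between, with the match in capitals.
Psmb5, chr14:54618004-54618072, minus strand: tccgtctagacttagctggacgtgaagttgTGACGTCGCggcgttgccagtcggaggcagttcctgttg
Psmc6, chr14:45329574-45329635, plus strand, match on the other strand: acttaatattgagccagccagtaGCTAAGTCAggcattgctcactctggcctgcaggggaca
Psmd9, chr5:123228129-123228189, plus strand: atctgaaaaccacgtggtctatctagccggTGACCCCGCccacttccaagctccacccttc
Psmb6, chr11:70525318-70525356, plus strand: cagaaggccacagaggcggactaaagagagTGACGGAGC
The genes with a match differed from control by 0.14 (Psmb5), -0.13 (Psmc6), 0.07 (Psmd9), 0.02 (Psmb6), 0.01 (Psmd12) and 0.00 (Psme4) for the mean of the acids, so genes with the same letters lay on either side of control. The CCAAT box was in 13 of 39 promoters, or 33.3% (37.4% of all), and the nuclear respiratory factor 1 motif in 6, or 15.4% (4.6% of all). A match is a run of letters in the window, not evidence of binding.

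In the lid of the regulatory particle, Psmd7, a scaffold partner of the deubiquitinase Psmd14, came nearest to a call. It measured 10.06, 9.87, 9.79 and 9.87 on the control arrays. With PMA it stood at 9.77, 9.67, 9.72 and 9.74, with SA at 9.75, 9.74, 9.71 and 9.70 and with OA at 9.57, 9.75 and 9.67, and none of those reached the lowest control. The PA arrays at 9.70, 9.79, 9.90 and 9.65 overlapped the controls. The difference was -0.24 ± 0.07 with OA (limma adjusted p = 0.103), -0.18 with PMA (adjusted p = 0.184), -0.18 with SA (adjusted p = 0.347), -0.14 with PA (adjusted p = 0.294) and -0.18 ± 0.05 for the mean of the acids (adjusted p = 0.116). With a trended, robust spread or array weights Psmd7 passed with OA and for the mean of the acids. Control replicate 1 is the highest of all arrays for Psmd7, and without it the mean difference was -0.13 (adjusted p = 0.334).

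**Figure D4:**
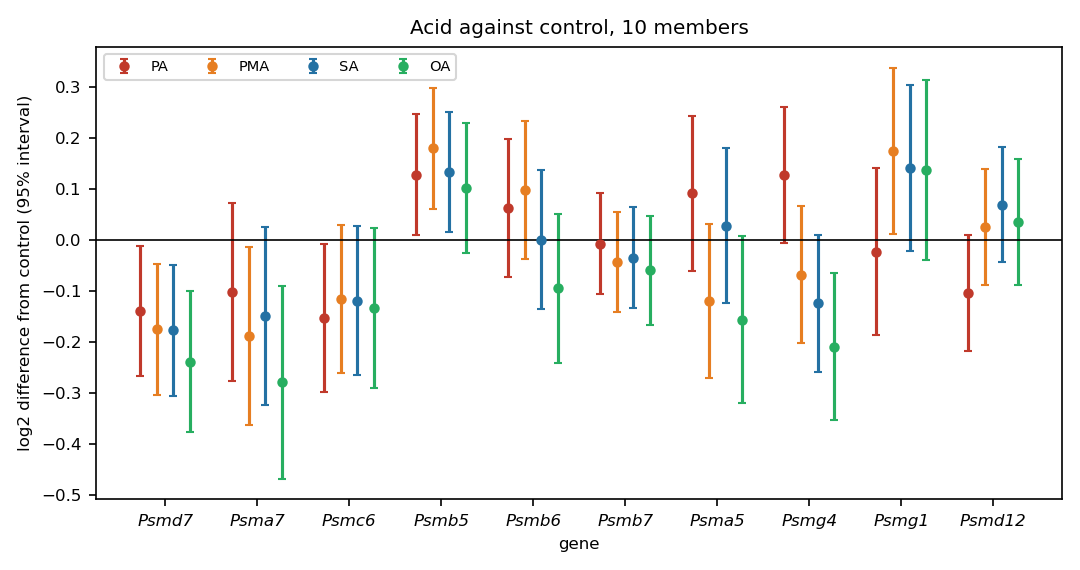
Points give the log2 difference of 10 members from the 4 control arrays for each acid, with 95% intervals. Psmd7 and Psma7 lie below 0 with each acid, and Psmb5 above 0, though without PA replicate 2 the PA value of Psma7 turned from -0.10 to 0.011.

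Psmd12, another lid subunit, had its smallest p for PA against SA. It measured 9.14, 8.92, 9.17 and 9.20 with PA and 9.31, 9.31, 9.25 and 9.26 with SA, and the groups did not overlap. In that comparison 1 member lay wholly higher, Psmg4, and 1 wholly lower, Psmd12 (2.73% and 2.57% of all genes). PA minus SA was -0.17 ± 0.05 (limma adjusted p = 0.177). With PMA it measured 9.24, 9.20, 9.22 and 9.30, and PA minus PMA was -0.13 (adjusted p = 0.218). Without PA replicate 2, the lowest array, these differences were -0.11 and -0.068.

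In the base, Psmc6, an ATPase, measured 9.70, 9.73, 9.66 and 9.62 on the control arrays and 9.63, 9.26, 9.65 and 9.56 with PA, an average of 0.15 below (limma adjusted p = 0.307), where replicate 2 is the low array. Without it the difference was -0.065, and without PA replicates 2 and 4 it was -0.036. With PMA it stood at 9.53, 9.59, 9.55 and 9.57, all below the controls, at a difference of -0.12. Psmc2, a further ATPase, differed from control by -0.12 ± 0.05 with OA (limma adjusted p = 0.329), with arrays at 8.15, 8.04 and 8.15 against 8.18, 8.26, 8.29 and 8.21. Psmd13, a lid subunit, differed by 0.13 with PMA (limma adjusted p = 0.364). PA minus PMA was negative for 9 of 9 base genes, against 61.2% of all genes, with Psmd2 at -0.15 (limma adjusted p = 0.128). That count was 5 of 9 without PA replicates 2 and 4 and 3 of 9 under cyclic loess, where the base median turned from -0.05 to 0.018. Psmd2 was at -0.099 under cyclic loess, and at -0.089 without PA replicates 2 and 4 and PMA replicates 1 and 4. A second probe set for Psmd2 gave -0.11.

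Groups that did not overlap were counted for the whole set too. With PMA, 3 members lay wholly above and 3 wholly below the controls (all genes, 9.29% and 1.3%), namely Psmb5, Psmc4 and Psmg1, and Psma7, Psmc6 and Psmd7. With OA it was 1 above and 5 below (9.72% and 4.63%), with SA 1 and 3 (4.88% and 2.5%) and with PA none (3.9% and 1.65%). For the mean of the acids (0.372% and 0.154%) and for saturated against monounsaturated acids (0.0478% and 0.165%) there was none either. Psma7 and Psmd7 were among those below with PMA, SA and OA, which share the controls. PA and PMA, which differ by 1 double bond, separated 2 members, Psmd12 and Psme3, both lower with PA (0.919% higher and 7.09% lower of all genes). SA and OA separated 3, Psma5, the dim Psma8 and Psmc2, all higher with SA (2.13% and 2.5%). PMA and OA separated 4, Psmb5, Psmc2, Psmc4 and Psmg3, all higher with PMA (6.98% and 1.92%).

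Among the assembly chaperones, Psmg4, which with Psmg3 helps build the alpha ring, was the member most different between PA and SA. It measured 7.96, 8.02, 8.23 and 8.17 with PA and 7.90, 7.79, 7.80 and 7.87 with SA, without overlap. The difference was 0.25 ± 0.06 (limma adjusted p = 0.131; interval 0.12 to 0.39), which passed when PA replicate 1 was left out. The controls stood between, at 8.01, 7.98, 7.93 and 7.95, and the OA arrays at 7.88, 7.72 and 7.67 lay below all of them, at -0.21 ± 0.07 (adjusted p = 0.197). Psmg3 was lower with OA, at 5.77, 5.59 and 5.82, than with PMA, at 5.99, 5.96, 6.03 and 6.02, a difference of 0.27 ± 0.07 for PMA minus OA (limma adjusted p = 0.234). Without OA replicate 2 that difference was 0.20. Psmg3 was among the dimmer members, between 5.59 and 6.10 on all arrays, where array medians over all probe sets ran from 5.23 to 5.43. Psmg1 measured 8.49, 8.51, 8.48 and 8.39 in controls and 8.64, 8.58, 8.66 and 8.69 with PMA, 0.18 higher (limma adjusted p = 0.28).

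None of the 5 activators and inhibitors passed the test. Psme3, the nuclear activator PA28 gamma, differed by 0.13 with PMA (limma adjusted p = 0.246) and by -0.02 with PA. Psme1, a PA28 subunit, differed by -0.10 with OA, and Psmf1, a proteasome inhibitor, by -0.07 with PA and 0.10 with PMA, which gave -0.18 for PA minus PMA (limma adjusted p = 0.145), a difference that passed without PA replicate 3. Without PMA replicates 1 and 4 that difference was -0.10, as the PMA value lay closer to control. Without PA replicates 2 and 4 the PA value of Psmf1 was -0.033 and that of Psme3 was -0.036. The testis form Psma8 stood between 3.97 and 4.46 on all arrays and the thymus form Psmb11 between 5.03 and 5.4. Array medians over all probe sets ran from 5.23 to 5.43, so Psma8 lay below them on every array. OA differed from control by -0.24 for Psma8 (limma adjusted p = 0.262), a difference between dim values.

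Genes that work beside the proteasome were taken from lists. All 3 immune subunits were measured and 0 passed; Psmb9 differed by 0.23 ± 0.08 with PA (limma adjusted p = 0.23), and by 0.11 without PA replicates 2 and 4. Of 19 partner genes 13 were measured, and 0 passed against control. Pomp, the assembly factor of the core, differed by -0.12 with PA and by -0.21 with PMA, SA and OA (limma adjusted p from 0.137 to 0.365). Its PA value was -0.068 without PA replicate 2, and under cyclic loess it passed with PMA and OA. Zfand2a, which binds the proteasome under stress, was lower with PA than with PMA, at -0.23 ± 0.05 (limma adjusted p = 0.0426), a call lost in 12 of the 19 fits that left out 1 array. Of 16 regulators of subunit genes 14 were measured and of 14 ubiquitin and conjugation genes 8, and 0 of either list passed. The nearest were the p97 cofactor Nploc4 with PMA at 0.17 (limma adjusted p = 0.126), the Maf partner Mafk with OA at -0.23 (adjusted p = 0.181), and with PA the conjugating enzyme Ube2n at -0.28 (adjusted p = 0.244) and the activating enzyme Uba6 at -0.24 (adjusted p = 0.263). Without PA replicates 2 and 4, Ube2n was at -0.039 and Uba6 at -0.041.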

How the data were processed

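The deposited values are log2 expression from Affymetrix mouse gene arrays, which the authors made with RMA in affy 1.34.0 under R 2.15.0, per the submitters' processing notes; the annotation build is not given in the sources used here. Labelled RNA came from 100 ng total RNA of integrity number above 9, per the labels' protocols. Of 35556 probe sets, 21218 had 1 gene symbol, 1881 had several and 12457 were not listed; the brightest single-symbol probe set by mean over 19 arrays stood for each of 18820 genes. RMA shrinks differences of dim probe sets, and 3 or 4 arrays a group limit the precision.

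limma 3.58.1 (R 4.3.3) fitted 1 mean per group over all 19 arrays with lmFit and eBayes, and p-values were adjusted over all genes by Benjamini-Hochberg in each of 10 contrasts. The fit was tested on simulated data. Intervals are 95%. No array is identical to another. Named were the catalytic and tissue-specific genes and those with the smallest p per class; Psmg3, the genes named for groups that did not overlap and the split by ring were chosen after their values were seen. The members and lists were chosen with earlier results of these data known. Alternatives changed the genes tested, the probe set rule, the normalization, the spread, the replicate block and the arrays.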

Additional observations from a re-analysis of the deposited data

Results flagged for a closer look

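Among 84 groups tested for a sample far from the others over 21 genes, 4 held one, and chance gives about 1 in 20 groups. Psma7, an alpha subunit, measured 9.22 on PMA replicate 4, with the other PMA arrays between 9.08 and 9.09. Psmd10, a chaperone of the base, measured 8.80 on SA replicate 1 against 8.69 to 8.71 on the others. Psme1, a subunit of an alternative cap, measured 9.05 on control replicate 1 against 8.90 to 8.91. Psmg1, a chaperone of the alpha ring, measured 8.10 on PA replicate 2 against 8.52 to 8.60.

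Psmd12, a lid subunit, lay on different sides of the control mean with PA and OA. PA averaged -0.10 with each of its 4 arrays below, or -0.042 without PA replicate 2. OA averaged 0.04 with each of its 3 arrays between 0.02 and 0.05 above. Some arrays of both groups lay inside the range of the control arrays, 9.15 to 9.25. The difference between PA and OA was not tested.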

How the results depend on the processing

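Most results kept their direction and side of the threshold, among them 282 recomputed counts of members passed, against 17 that did not. Part of this agreement was fixed in advance. Leaving out an array of a group outside a comparison leaves its differences unchanged. Counts of 0 are also near what the low shares of all genes called give. For OA against control the count was 1 with a trended, robust spread (Psmd7), 1 with only the arrays compared (Psma7), 1 without PA replicates 2 and 4 (Psma7), 1 also without PMA replicates 1 and 4, a setting chosen after seeing the data (Psma7), and 4 with array quality weights, under which calls over all genes went from 162 to 1188. A trended, robust spread gave 1 for PMA against control (Psmb5), 1 for the mean of the acids (Psmd7), 1 for saturated against monounsaturated (Psma5) and 1 for PA against PMA (Psmd2). Array weights gave 1 for the mean of the acids (Psmd7). Cyclic loess gave 1 for saturated against monounsaturated (Psma5) and 1 for PA against PMA (Psmg4). Leaving out 1 array gave counts from 0 to 1 for OA against control (1 without PA replicate 2), for saturated against monounsaturated and PA against SA (1 without PA replicate 1), and for PA against PMA (1 without PA replicate 1 or 3), and 0 in the other comparisons.

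The median of all members with PMA went from 0.01 to -0.045 under cyclic loess, and that of PA against PMA from -0.03 to 0.023, and to 0.034 with the 4 outlying arrays left out. Core minus regulatory medians ranged, leaving out 1 array, from -0.066 to -2.2e-05 for OA against control, -0.0095 to 0.057 for SA against OA and 0.0038 to 0.079 for PMA against OA, where array weights gave 0.00042. Psme4 with PA turned from -0.083 to 0.028 without PA replicates 2 and 4, also with PMA replicates 1 and 4 left out. The causes were not tested.

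Correlations were taken between arrays after the mean of its own group was subtracted from each value. Between arrays sharing a replicate number they ran from -0.43 to 0.40 (median 0.01), with 6 of 36 pairs over 0.1. The median over the other pairs was 0.0025. Whether arrays of the same number were handled together was not tested. With the replicate block the count of members passed was 0 in every comparison by limma, and calls over all genes with OA went from 162 to 72.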
